A study of Mus musculus with 12 samples.

Results

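The nuclear receptors described here are 35 genes of the family, listed by name, leaving out the clock receptors of the Rev-erb group and the glucocorticoid receptor. Members were matched by the single gene symbol that the probe annotation gave a probe set. Of the 35, 34 had such a probe set, out of 19937 genes with one, and each of the 34 had exactly 1. Nr1h2 is not analysed here. The study measured liver RNA from 12 male C57Bl/6 mice on Affymetrix whole-transcript arrays, with 1 array per animal. Wild-type mice and mice with a deletion of Hdac6, the gene of a mainly cytoplasmic lysine deacetylase, received dexamethasone, a synthetic glucocorticoid, or vehicle. Each genotype had 1 group on vehicle and 1 on dexamethasone, and each of the 4 groups held 3 different animals. Dexamethasone was given intraperitoneally at 1 mg/kg over 3 weeks, and all animals were fed freely under a constant light cycle. The labels give no age, no time of tissue collection and no cell type limit for the deletion.

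Nuclear receptors are transcription factors with a zinc-finger domain that binds DNA and, in most members, a pocket for a small lipid-soluble ligand such as a bile acid, fatty acid, oxysterol, retinoid or thyroid hormone. Many bind DNA as partners of the retinoid X receptors, and they act through coactivators and corepressors that change chromatin. In the liver they control bile acid synthesis, lipid use, glucose output and the handling of foreign compounds. Dexamethasone acts mainly through the glucocorticoid receptor, and in rodents it can also activate the pregnane X receptor.

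The promoters of the 4 members whose RNA changed with dexamethasone in both genotypes are shown because these calls held under all 21 alternative settings run here. Each window runs from 250 bases before to 50 after the transcription start, 5′ to 3′ on the gene's strand, from RefSeq on GRCm38.p6. Nr1i2 lies at chr16:38294775-38295074 on the minus strand, Nr2f2 at chr7:70366697-70366996 on the minus strand, Nr2f6 at chr8:71381903-71382202 on the minus strand and Nr3c2 at chr8:76902080-76902379 on the plus strand. Capitals mark AGAACA, the half-site of the glucocorticoid receptor, found here only in the Nr1i2 window.
Nr1i2: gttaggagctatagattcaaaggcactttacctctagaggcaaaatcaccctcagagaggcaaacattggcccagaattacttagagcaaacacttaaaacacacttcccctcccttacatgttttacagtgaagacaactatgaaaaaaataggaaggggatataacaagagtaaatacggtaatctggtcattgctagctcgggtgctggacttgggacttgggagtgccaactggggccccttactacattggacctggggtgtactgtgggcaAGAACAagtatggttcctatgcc
Nr2f2: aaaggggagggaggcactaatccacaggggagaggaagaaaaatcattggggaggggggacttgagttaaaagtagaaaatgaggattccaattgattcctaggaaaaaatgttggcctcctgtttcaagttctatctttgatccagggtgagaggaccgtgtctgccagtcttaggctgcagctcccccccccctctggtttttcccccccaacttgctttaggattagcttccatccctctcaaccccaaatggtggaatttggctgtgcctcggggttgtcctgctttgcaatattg
Nr2f6: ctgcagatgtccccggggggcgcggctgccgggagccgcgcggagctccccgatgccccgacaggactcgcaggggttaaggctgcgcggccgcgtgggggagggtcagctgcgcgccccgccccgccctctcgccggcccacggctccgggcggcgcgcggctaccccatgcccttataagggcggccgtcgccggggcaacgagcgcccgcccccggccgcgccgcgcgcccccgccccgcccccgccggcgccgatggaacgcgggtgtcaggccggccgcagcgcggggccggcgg
Nr3c2: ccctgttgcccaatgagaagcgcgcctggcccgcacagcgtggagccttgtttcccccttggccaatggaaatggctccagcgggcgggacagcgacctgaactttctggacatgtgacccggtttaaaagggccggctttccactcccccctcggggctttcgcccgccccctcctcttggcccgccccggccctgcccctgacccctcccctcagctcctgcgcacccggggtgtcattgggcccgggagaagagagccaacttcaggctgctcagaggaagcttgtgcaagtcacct
The 4 windows differ in composition. The Nr1i2 and Nr2f2 windows hold 2 CG dinucleotides each, the Nr3c2 window 17 and the Nr2f6 window 53, and their GC content is 45.3%, 49.7%, 65.7% and 82.7% in that order. Across the members, 32 had an entry in the RefSeq promoter table, with 51 windows, and their median GC content was 60% against 52.7% over all 32851 windows.

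Motifs were searched on both strands of every window. The palindrome GNACANNNTGTNC, read by the glucocorticoid and mineralocorticoid receptors, was in 0 of the 51 member windows and in 0.475% of all windows. AGAACA, which can overlap that palindrome, was in 4 of the 51 member windows (7.84%), of Nr1i2, Nr5a2 and Thrb, and in 19% of all windows. AGGTCA, the half-site of most non-steroid receptors, was in 10 member windows (19.6%), of 9 members, and in 16.3% of all. Direct repeats of it with 1 base between (AGGTCANAGGTCA) or 4 (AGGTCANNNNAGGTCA) were in 0 member windows, and in 0.0396% and 0.0152% of all. A match or its absence describes the letters of these windows and nothing further.

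Expression is given on the log2 scale, where adding 1 means a doubled signal. The values compare arrays for 1 gene, not genes with each other. Genes entered the test where at least 3 arrays gave a value over that array's 20th percentile; 17904 did, and all 34 measured members were among them. Nr4a3 was nearest the limit, above it in 6 of 12 arrays, followed by Hnf4g in 9 of 12. Changes come from a limma fit over all 12 arrays, with standard errors from that fit, and passed the test at a Benjamini-Hochberg adjusted p under 0.05 over the 17904 genes. The number of arrays limits the precision. Hdac6 was lower in the knockout by 2.08 ± 0.14 under vehicle (4.22-fold, limma adjusted p = 3.70e-05) and by 2.23 ± 0.14 under dexamethasone (4.70-fold, adjusted p = 1.53e-05), with no overlap of genotypes. Hepatocyte markers were high on every array, with means of 9 markers between 12.41 and 12.69. On 4 arrays, namely vehicle 1 and 2 and dexamethasone 3 of the wild type and vehicle 3 of the knockout, 9 pancreas acinar markers averaged 8.01 to 10.02, against 3.23 to 3.70 on the other 8. For the members, calls lost or gained without those 4 arrays, and the larger shifts of value, are given beside the dexamethasone results. For the other lists only a part of them is given. That fit left 1 wild-type vehicle array, which was assumed to vary like the other groups.

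More nuclear receptors fell than rose with dexamethasone. In wild-type livers 1 of the 34 members rose and 8 fell, while 4.57% of all genes rose and 6.95% fell. In knockout livers 3 members rose and 5 fell, while 4.38% of all genes rose and 3.92% fell. In both genotypes Nr1i2 rose and Nr2f2, Nr2f6 and Nr3c2 fell, and these 4 passed under all 21 alternative settings in either genotype. Some of these settings cannot move a log2 change within a genotype, only its adjusted p. The members were chosen with earlier results of these data known, which limits the comparison with the shares of all genes. Averaged over the genotypes, which uses all 12 arrays, 4 members rose and 10 fell, against 7.29% and 9.94% of all genes. The median size of the change was 0.30 over the members in wild type and 0.34 in the knockout, against 0.13 and 0.11 over all genes tested. The signed medians were -0.04 and -0.09, against 0.01 and -0.01. With the 4 arrays that hold pancreas transcripts left out, the wild-type values were 0.85 for Nr1i2, -1.25 for Nr2f2, -0.74 for Nr2f6 and -2.04 for Nr3c2. The knockout values were 0.61, -0.95, -0.71 and -1.31 in that order. Several calls of other members were lost there, as given below.

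**Figure D1:**
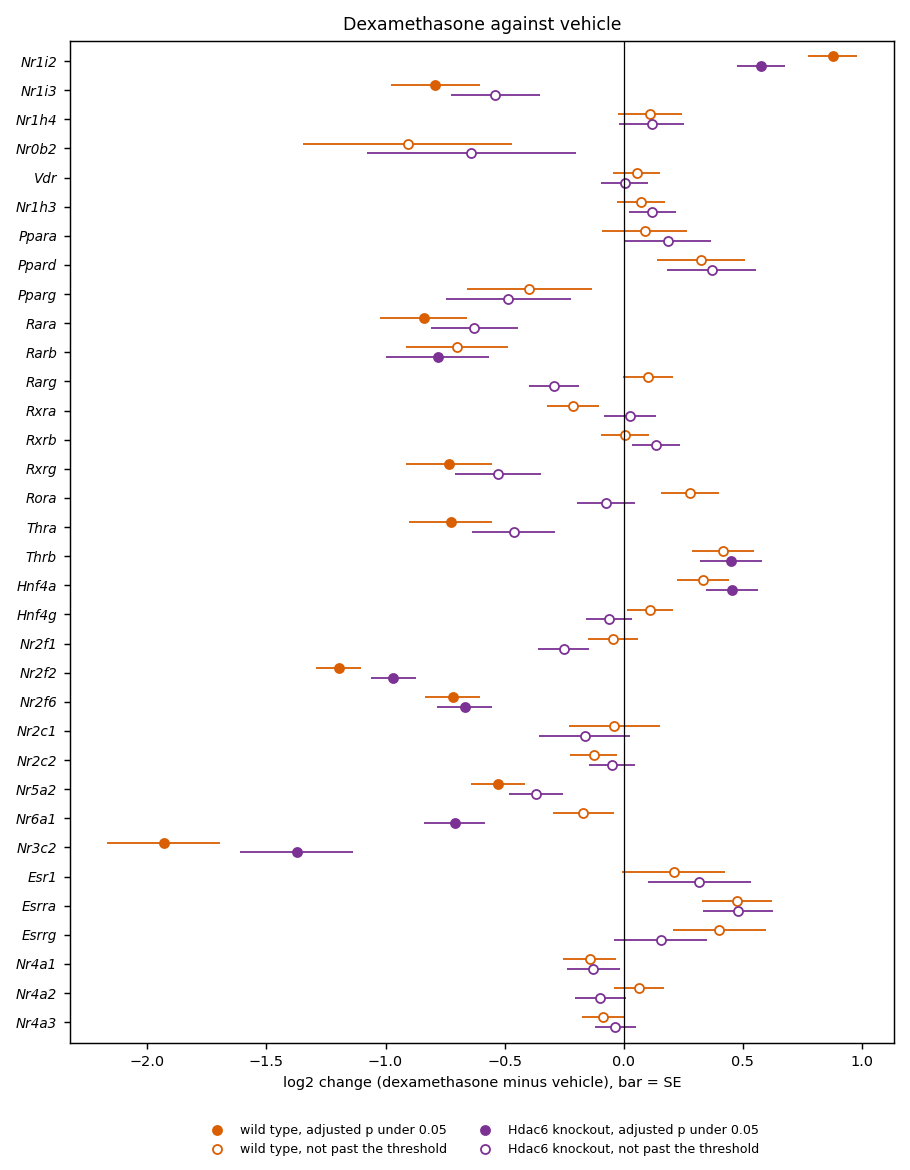
Log2 change with dexamethasone (dexamethasone minus vehicle) of the 34 measured nuclear receptors, ordered by role, in wild type (orange) and Hdac6 knockout (purple); bars are the standard error of the limma fit and filled points passed the threshold. Nr3c2 (-1.93 and -1.37) and Nr2f2 (-1.20 and -0.97) lie farthest to the left, and Nr1i2 (0.88 and 0.58) farthest to the right.

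Among receptors of foreign compounds and bile acids, Nr1i2 and Nr1i3 passed in opposite directions. Nr1i2 encodes the pregnane X receptor, which induces drug-metabolising enzymes. Its level was 7.43, 7.65 and 7.54 in wild-type vehicle livers and 8.40, 8.37 and 8.47 with dexamethasone. In knockout livers it was 7.52, 7.32 and 7.52 with vehicle and 8.01, 8.20 and 7.89 with dexamethasone. All 6 treated arrays lay above all 6 vehicle arrays, and the knockout arrays with dexamethasone lay below the wild-type ones. The rise was 0.88 ± 0.10 in wild type (1.84-fold, limma adjusted p = 1.02e-04) and 0.58 ± 0.10 in the knockout (1.49-fold, adjusted p = 2.75e-03). The difference of the rises, -0.30 ± 0.14, did not pass the test (adjusted p = 0.812).

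Nr1i3, the constitutive androstane receptor, is the other main sensor of foreign compounds. It read 9.07, 9.45 and 8.96 in wild-type vehicle livers and 8.15, 8.38 and 8.57 with dexamethasone. The knockout arrays read 8.93, 8.57 and 8.29 with vehicle and 8.31, 7.75 and 8.11 with dexamethasone. The wild-type groups did not overlap, whereas the knockout groups did. Nr1i3 fell by 0.79 ± 0.19 in wild type (limma adjusted p = 0.0146). The knockout change was -0.54 ± 0.19 (adjusted p = 0.110), and the average fell by 0.67 ± 0.13 (adjusted p = 2.99e-03). The wild-type call was lost without wild-type vehicle array 2 (-0.65), without wild-type dexamethasone array 1 (-0.68) and without the 4 arrays with pancreas transcripts (-0.69).

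The bile acid receptor FXR (Nr1h4) had changes of 0.11 in wild type (95% interval -0.18 to 0.40) and 0.12 in the knockout (-0.17 to 0.41). Nr0b2 encodes the small heterodimer partner, a repressor induced by FXR that lacks a DNA-binding domain. It spread widely among animals of a group, from 6.21 to 7.32 in wild-type vehicle livers and from 6.07 to 8.10 in knockout vehicle livers. With dexamethasone it spanned 5.54 to 6.25 in wild type and 5.71 to 6.66 in the knockout. Its changes of -0.91 ± 0.44 and -0.64 ± 0.44 did not pass (limma adjusted p = 0.233 and 0.527), and the wild-type interval ran from -1.85 to 0.04. The wild-type value was -1.18 without the 4 arrays with pancreas transcripts. The knockout value rested on single arrays: it was -0.036 without knockout vehicle array 1, -0.37 without dexamethasone array 3 and -1.05 without vehicle array 3 or without the 4 arrays with pancreas transcripts. The average of -0.77 passed in 1 of 20 alternatives, without knockout vehicle array 3. The vitamin D receptor (Vdr) stayed between 2.24 and 2.59 on all arrays, just above the filter.

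None of the receptors of oxysterols and fatty acids passed in either genotype. Nr1h3, the oxysterol receptor LXR alpha, read 7.95 to 8.31 across the 12 arrays, with changes of 0.07 (95% interval -0.14 to 0.29) and 0.12 (-0.10 to 0.34) in wild type and knockout. Ppara, the fatty acid receptor that drives hepatic fat oxidation, read 8.54 to 9.21, with changes of 0.09 (-0.30 to 0.47) and 0.19 (-0.20 to 0.57). Ppard, a broadly expressed fatty acid receptor, had values of 0.32 ± 0.19 and 0.37 ± 0.19 (limma adjusted p = 0.330 and 0.324). Pparg, the adipogenic member, had values of -0.40 ± 0.26 and -0.48 ± 0.26 (adjusted p = 0.409 and 0.373). Neither passed in the average (adjusted p = 0.0954 and 0.136). The average of Ppard passed without wild-type dexamethasone array 1 (adjusted p = 0.0315), and that of Pparg without knockout vehicle array 1 or dexamethasone array 3 (adjusted p = 0.0374 and 0.0197). Without the 4 arrays with pancreas transcripts Ppard had -0.012 in wild type and 0.46 in the knockout, and Pparg had -0.13 and -0.28. The wild-type values of Nr1h4 and Ppara also turned sign there, to -0.052 and -0.057.

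Among the retinoid receptors, Rara, Rarb and Rxrg were lower with dexamethasone, each passing in 1 genotype and in the average. Rara, a retinoic acid receptor, read 5.45, 6.32 and 5.79 in wild-type vehicle livers and 5.02, 4.97 and 5.05 with dexamethasone. It read 5.85, 5.35 and 5.40 in knockout vehicle livers and 4.83, 4.90 and 4.996 with dexamethasone. All treated arrays lay below all vehicle arrays, and the vehicle arrays were the more scattered. It fell by 0.84 ± 0.18 in wild type (1.79-fold, limma adjusted p = 8.71e-03), and the knockout value of -0.63 ± 0.18 missed the threshold (adjusted p = 0.0521). With those 4 arrays left out the wild-type value was -0.79 and did not pass (adjusted p = 0.0711), while the knockout value was -0.69 and passed.

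Rarb is a retinoic acid receptor whose own gene is a classical target of retinoic acid. Its wild-type values were 4.25, 3.24 and 3.50 with vehicle and 3.19, 2.75 and 2.94 with dexamethasone. Its knockout values were 3.75, 3.40 and 3.48 with vehicle and 2.53, 2.89 and 2.87 with dexamethasone. The treatments did not overlap in either genotype. The means with dexamethasone, 2.96 in wild type and 2.76 in the knockout, lay below the median signal of every array (3.13 to 3.24). Rarb fell by 0.78 ± 0.21 in the knockout (limma adjusted p = 0.0392), against -0.70 ± 0.21 in wild type (adjusted p = 0.0517). Without the 4 arrays with pancreas transcripts the values were -0.81 in the knockout and -0.53 in wild type. The knockout call was lost without wild-type dexamethasone array 3 and without any single knockout array (-0.85 to -0.66, adjusted p up to 0.149), and the average fell by 0.74 ± 0.15 (adjusted p = 3.56e-03).

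Rxrg, the retinoid X receptor of muscle and brain, read 3.77, 4.11 and 3.19 in wild-type vehicle livers and 3.06, 2.78 and 3.03 with dexamethasone. It read 3.76, 3.56 and 3.51 in knockout vehicle livers and 3.14, 3.14 and 2.96 with dexamethasone. The highest wild-type vehicle values came from the 2 arrays with pancreas transcripts, whose part in the result was not tested. The means with dexamethasone, 2.96 in wild type and 3.08 in the knockout, were also below the array medians of 3.13 to 3.24. Rxrg fell by 0.74 ± 0.18 in wild type (limma adjusted p = 0.0173), against -0.53 ± 0.18 in the knockout (adjusted p = 0.103). The wild-type call was lost without wild-type vehicle array 1 (-0.70), vehicle array 2 (-0.52) or dexamethasone array 2 (-0.65), with only the 2 groups in the fit (adjusted p = 0.0637), and without the 4 arrays, where the value was -0.27. In the knockout the value without them was -0.58 and passed.

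The other retinoid receptors did not pass. Rxra, the main hepatic partner of the other receptors, had values of -0.21 (95% interval -0.45 to 0.02) in wild type and 0.03 (-0.21 to 0.26) in the knockout. Rxrb, the ubiquitous form, had 0.01 (-0.21 to 0.22) and 0.13 (-0.08 to 0.35). Rarg, the third retinoic acid receptor, had values of opposite sign, 0.10 ± 0.10 in wild type and -0.29 ± 0.10 in the knockout, and the difference of -0.39 ± 0.15 did not pass (limma adjusted p = 0.754). Rora, a constitutively active receptor of the ROR group, likewise had 0.28 ± 0.12 and -0.07 ± 0.12.

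The thyroid hormone receptor genes moved in opposite directions. Thra, the alpha form, had wild-type values of 5.88, 6.01 and 5.65 with vehicle and 4.96, 4.94 and 5.47 with dexamethasone. Its knockout values were 5.94, 5.56 and 5.73 with vehicle and 5.52, 5.36 and 4.96 with dexamethasone. Every treated array lay below every vehicle array, by a narrow margin in the knockout. Thra fell by 0.73 ± 0.17 in wild type (1.66-fold, limma adjusted p = 0.0149), against -0.46 ± 0.17 in the knockout (adjusted p = 0.145). The wild-type call was lost without wild-type vehicle array 2 (-0.65), dexamethasone array 1 (-0.65) or dexamethasone array 2 (-0.63), and without the 4 arrays with pancreas transcripts (-0.71).

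Thrb, the form that predominates in hepatocytes, read 6.76, 6.35 and 6.64 in wild-type vehicle livers and 7.20, 7.03 and 6.78 with dexamethasone. It read 6.72, 6.58 and 6.81 in knockout vehicle livers and 7.27, 7.05 and 7.14 with dexamethasone. The treated arrays were above the vehicle arrays within each genotype. Thrb rose by 0.45 ± 0.13 in the knockout (1.37-fold, limma adjusted p = 0.0489), and had 0.42 ± 0.13 in wild type (adjusted p = 0.0552). The knockout call sat at the threshold: it was lost without the filter (adjusted p = 0.0515), with a mean-variance trend (0.0535), without wild-type vehicle array 3 or dexamethasone array 2, and without any single knockout array (adjusted p up to 0.171). Averaged over the genotypes, Thra fell by 0.59 ± 0.12 (adjusted p = 3.73e-03) and Thrb rose by 0.43 ± 0.09 (adjusted p = 4.39e-03).

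Nr2f2 and Nr2f6, of the COUP-TF group of orphan receptors that often compete with HNF4 and other receptors for their sites, fell in both genotypes. Nr2f2 (COUP-TFII) read 7.66, 7.66 and 7.83 in wild-type vehicle livers and 6.49, 6.67 and 6.40 with dexamethasone. In knockout livers it read 7.45, 7.28 and 7.42 with vehicle and 6.37, 6.45 and 6.42 with dexamethasone. The treatments were separated by far more than the spread within groups, and it had the smallest adjusted p of the members in each genotype. It fell by 1.20 ± 0.10 in wild type (2.29-fold, limma adjusted p = 4.31e-06) and by 0.97 ± 0.10 in the knockout (1.95-fold, adjusted p = 2.71e-05).

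Nr2f6 (EAR2) read 7.40, 7.70 and 7.44 in wild-type vehicle livers and 6.69, 6.72 and 6.97 with dexamethasone. The knockout arrays read 7.36, 7.67 and 7.39 with vehicle and 6.83, 6.78 and 6.81 with dexamethasone. The 2 genotypes overlapped under each treatment, and the treatments did not overlap. Nr2f6 fell by 0.72 ± 0.11 in wild type (1.65-fold, limma adjusted p = 1.23e-03) and by 0.67 ± 0.11 in the knockout (1.59-fold, adjusted p = 2.25e-03). Nr2f1 (COUP-TFI) read 2.32 to 2.81, with values of -0.05 ± 0.11 and -0.25 ± 0.11 that did not pass.

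COUP-TFII is also a marker of venous endothelium, and the arrays hold all liver cell types, so fewer cells of a type and less RNA per cell cannot be told apart. Of 10 liver endothelial markers, 1 rose and 6 fell in wild type and 1 rose and 4 fell in the knockout. Over all genes tested, 4.57% rose and 6.95% fell in wild type, and 4.38% rose and 3.92% fell in the knockout. Kdr, a VEGF receptor, fell by 1.24 and 1.04, whereas Lyve1, a hyaluronan receptor, rose by 1.80 and 2.62. The mean of the 10 ranged from 6.96 to 7.19 with vehicle and 6.66 to 6.78 with dexamethasone in wild type, and from 6.86 to 6.98 and 6.80 to 7.01 in the knockout. Of 10 stellate cell markers, 2 fell in wild type and 1, Pdgfrb, in the knockout. Their mean ranged from 6.38 to 6.72 with vehicle and 6.13 to 6.24 with dexamethasone in wild type, and from 6.22 to 6.50 and 6.13 to 6.23 in the knockout. Of 11 Kupffer cell markers, 1 rose and 8 fell in wild type, and 1 rose and 0 fell in the knockout in the limma fit, with 0 lower at an unadjusted p under 0.05 as well. The interaction passed for 0 of the 11 and for 0% of all genes, so a difference between genotypes is not shown. The part of these cell types in the receptor results was not tested. Leaving out the 4 arrays with pancreas transcripts, 1 endothelial marker rose and 1 fell in each genotype, 0 stellate and 0 Kupffer markers passed in wild type, and Nr2f2 had -1.25 in wild type and passed.

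HNF4 alpha (Hnf4a), a receptor that maintains hepatocyte identity, had wild-type values of 9.61, 10.02 and 9.95 with vehicle and 10.25, 10.28 and 10.05 with dexamethasone. Its knockout values were 9.84, 9.95 and 9.86 with vehicle and 10.38, 10.29 and 10.34 with dexamethasone. All treated arrays lay above all vehicle arrays. Hnf4a rose by 0.45 ± 0.11 in the knockout (1.37-fold, limma adjusted p = 0.0204) and had 0.33 ± 0.11 in wild type (adjusted p = 0.0706). The knockout call was lost without knockout vehicle array 1 or 3 or any knockout dexamethasone array (0.43 to 0.48), with adjusted p up to 0.0751. The average rose by 0.39 ± 0.08 (adjusted p = 2.79e-03). Hnf4g, a paralog expressed mainly in gut and kidney, read 2.16 to 2.53, at the edge of the filter.

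Nr5a2 and Nr6a1 each passed in 1 genotype. Nr5a2 (LRH-1) supports bile acid synthesis together with the receptors above. It read 8.33, 8.34 and 8.19 in wild-type vehicle livers and 7.77, 7.75 and 7.76 with dexamethasone, and in the knockout 8.33, 7.91 and 8.31 with vehicle and 7.95, 7.77 and 7.72 with dexamethasone. The wild-type groups were tight and separate, and knockout vehicle array 2 overlapped the treated knockout arrays. It fell by 0.53 ± 0.11 in wild type (1.44-fold, limma adjusted p = 8.40e-03), against -0.37 ± 0.11 in the knockout (adjusted p = 0.0675). Without the 4 arrays with pancreas transcripts the wild-type value was -0.43 (adjusted p = 0.322) and the average of -0.37 did not pass either.

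Nr6a1 (germ cell nuclear factor) is an orphan receptor known from germ cells and embryos. Its wild-type values were 5.13, 4.58 and 5.03 with vehicle and 4.83, 4.67 and 4.73 with dexamethasone, which overlapped. Its knockout values were 5.30, 5.07 and 5.06 with vehicle and 4.37, 4.52 and 4.41 with dexamethasone, which did not. It fell by 0.71 ± 0.13 in the knockout (1.64-fold, limma adjusted p = 3.25e-03) under all 21 alternatives as well, and had -0.17 ± 0.13 in wild type (adjusted p = 0.487). The difference between genotypes, -0.54 ± 0.18, did not pass (adjusted p = 0.754), so a difference between genotypes is not shown. The wild-type value was -0.28 without the 4 arrays with pancreas transcripts and did not pass. The testicular receptors Nr2c1 and Nr2c2, orphan repressors, had values between -0.16 and -0.04 in both genotypes, and none passed. With the 4 arrays that hold pancreas transcripts left out, Nr2c2 had -0.31 in wild type and did not pass.

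Of the steroid and oestrogen-related receptors, Nr3c2 had the largest change of any member in each genotype. It encodes the mineralocorticoid receptor, the closest relative of the glucocorticoid receptor, which binds the same DNA palindrome and also binds glucocorticoids. The wild-type levels were 6.14, 6.13 and 6.10 with vehicle and 4.03, 4.09 and 4.46 with dexamethasone. The knockout levels were 5.48, 6.18 and 6.00 with vehicle and 5.15, 4.33 and 4.07 with dexamethasone. The groups did not overlap, and the knockout arrays were more scattered, with array 1 the closest to the other treatment in both groups. Nr3c2 fell by 1.93 ± 0.24 in wild type (3.81-fold, limma adjusted p = 1.58e-04) and by 1.37 ± 0.24 in the knockout (2.59-fold, adjusted p = 2.30e-03). The interaction of 0.56 ± 0.34 did not pass (adjusted p = 0.845).

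Esrra, an orphan receptor that works with PGC-1 alpha on mitochondrial genes, read 5.27, 5.62 and 5.52 in wild-type vehicle livers and 5.89, 5.95 and 6.00 with dexamethasone. It read 5.22, 5.13 and 4.98 in knockout vehicle livers and 5.23, 5.65 and 5.90 with dexamethasone. All treated arrays were above their own genotype's vehicle arrays, in the knockout by a narrow margin for array 1. Neither genotype passed alone, with 0.48 ± 0.15 in each (limma adjusted p = 0.0546 and 0.0664), and the average rose by 0.48 ± 0.10 (adjusted p = 5.39e-03). The average was 0.41 without the 4 arrays with pancreas transcripts and did not pass (adjusted p = 0.125). Esr1, the oestrogen receptor alpha, had 0.21 ± 0.22 and 0.32 ± 0.22, which did not pass. Its average passed without wild-type dexamethasone array 1 (limma adjusted p = 0.0421). Esrrg, a receptor related to Esrra, had 0.40 ± 0.19 and 0.15 ± 0.19, which did not pass either. The wild-type value of Esrrg without these 4 arrays was 0.82 and did not pass (adjusted p = 0.162), and leaving out single arrays gave 0.22 to 0.60. The immediate-early receptors Nr4a1, Nr4a2 and Nr4a3, which respond within hours to hormones and stress, had values between -0.14 and 0.06 and did not pass.

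**Figure D2:**
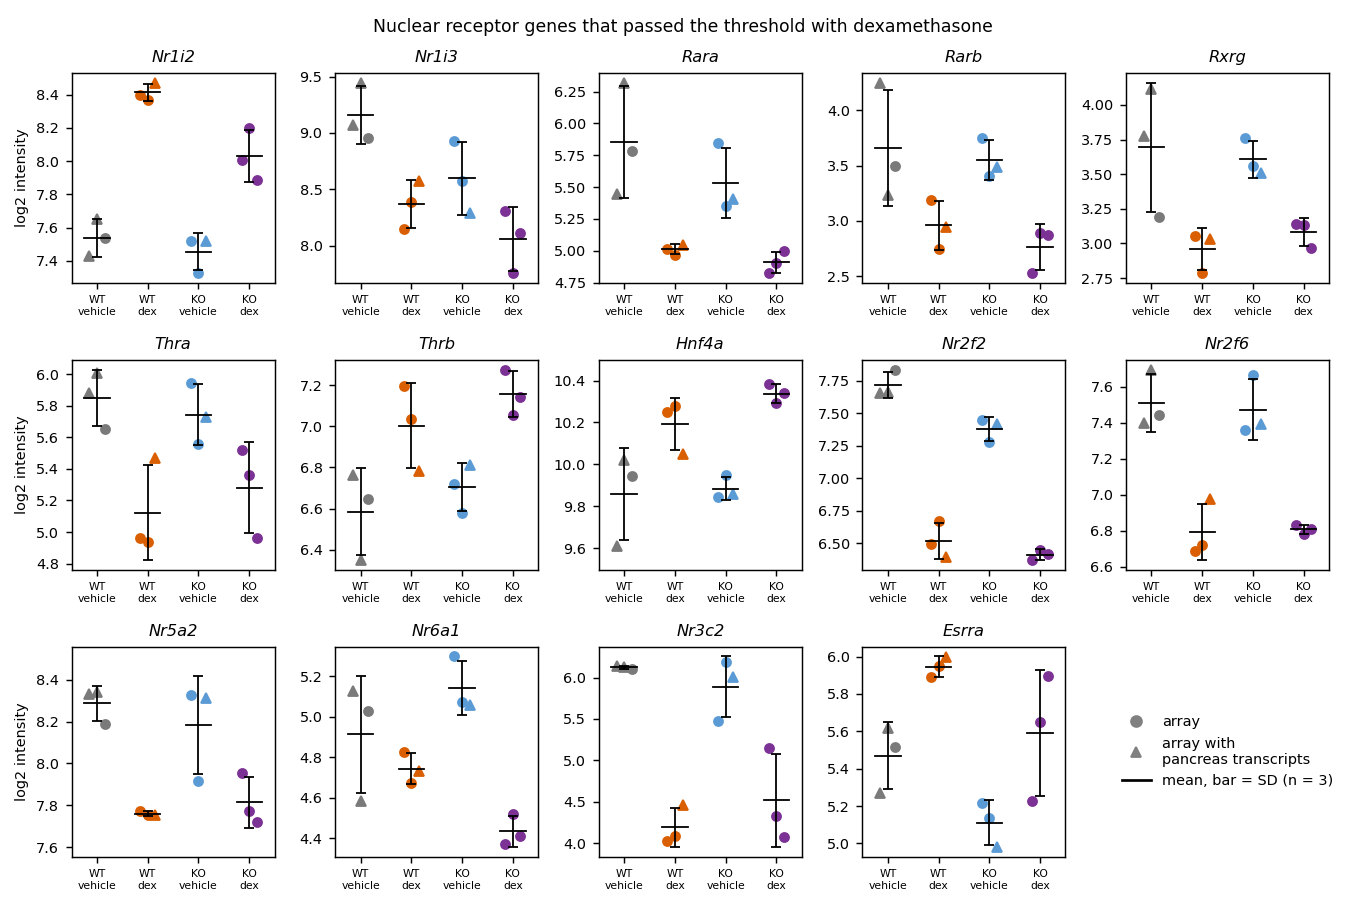
Log2 intensity on each of the 12 arrays for the 14 nuclear receptors that passed in at least 1 dexamethasone comparison, by group, with the mean and SD (n = 3); triangles are the 4 arrays with pancreas transcripts, and each panel has its own axis, which does not start at 0. Nr2f2 and Nr3c2 separate the treatments widely in both genotypes, whereas for Rxrg the highest wild-type vehicle values (3.77 and 4.11) are triangles.

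Loss of Hdac6 changed no measured nuclear receptor past the threshold. Under vehicle 0 of the 34 members passed in the limma fit, while 0.101% of all genes did. At an unadjusted limma p under 0.05 there were 4 of the 34 members and 1288 of the 17904 genes tested. The counts that follow have the same denominators. Under dexamethasone 0 passed, while 0.0279% of all genes did, and 5 members and 1566 of all genes had an unadjusted p under 0.05. Averaged over the treatments 0 passed against 0.0503% of all genes, with 5 members and 1798 of all genes at an unadjusted p under 0.05. For the interaction 0 members and 0% of all genes passed, with 2 members and 1109 of all genes at an unadjusted p under 0.05. These comparisons share arrays with the dexamethasone comparisons. The median size of the knockout difference was 0.087 over the members under vehicle and 0.15 under dexamethasone, against 0.091 and 0.098 over all genes.

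The members with an unadjusted p under 0.05 under vehicle or under dexamethasone are given as values, and those of the averaged knockout effect are not. Under vehicle, Nr2f2 was separate between genotypes, at 7.38 ± 0.09 in the knockout against 7.72 ± 0.10 in wild type (SD, n = 3), a difference of -0.34 ± 0.10 (limma adjusted p = 0.437). Nr1i3 was at 8.60 ± 0.32 against 9.16 ± 0.26, a difference of -0.56 ± 0.19 (adjusted p = 0.533). The levels of Nr1i3 in the 2 groups did not overlap, and without the 4 arrays with pancreas transcripts the difference was -0.20. Esrra differed by -0.36 ± 0.15 under vehicle and -0.35 ± 0.15 under dexamethasone (adjusted p = 0.648 and 0.527), and Nr2c1 by 0.45 ± 0.19 under vehicle (adjusted p = 0.666), which was 0.29 without those 4 arrays. Under dexamethasone, Nr1i2 was at 8.03 ± 0.16 in the knockout against 8.41 ± 0.05 in wild type, a difference of -0.38 ± 0.10 (adjusted p = 0.293). Rarg, Nr6a1 and Rora differed by -0.32 ± 0.10, -0.31 ± 0.13 and -0.26 ± 0.12 under dexamethasone (adjusted p = 0.407, 0.527 and 0.570).

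**Figure D3:**
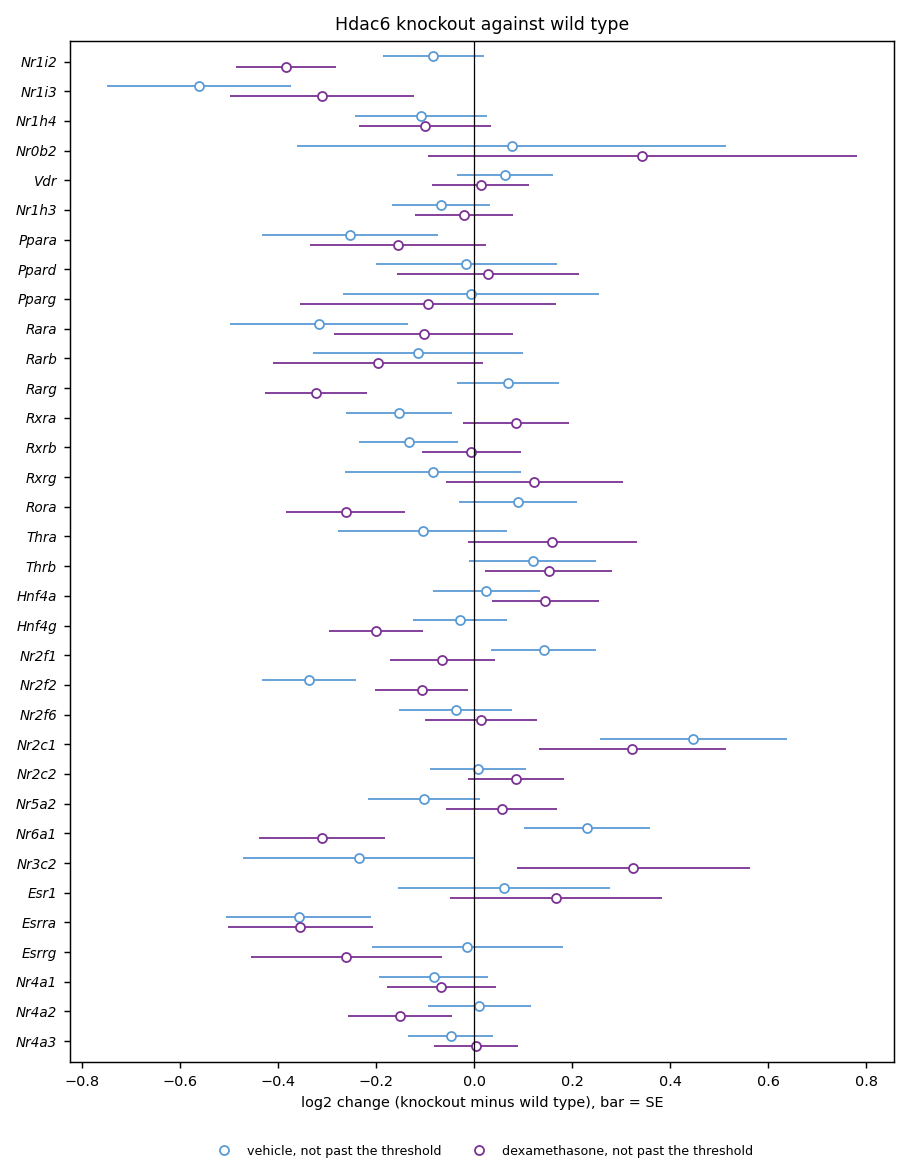
Log2 difference between Hdac6 knockout and wild type for the 34 measured nuclear receptors under vehicle (blue) and dexamethasone (purple), with the standard error of the limma fit. All points are open because none passed the threshold; Nr1i3 under vehicle (-0.56, or -0.20 without the 4 arrays with pancreas transcripts) is the most negative and Nr2c1 under vehicle (0.45, or 0.29) the most positive.

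Genes of coactivators, which nuclear receptors recruit to activate transcription, were more often higher than lower with dexamethasone. Like the members and marker lists, this list and the target lists below were chosen with earlier results of these data known. Their counts are therefore descriptions, and the shares of all genes beside them are not an independent test. The shares of all genes tested were 4.57% higher and 6.95% lower in wild type, and 4.38% and 3.92% in the knockout. Of 18 coactivators, 5 rose and 0 fell in wild type and 5 rose and 0 fell in the knockout, with medians of 0.13 and 0.17 against 0.01 and -0.01 over all genes. At an unadjusted limma p under 0.05, 1 coactivator was lower in wild type and 0 in the knockout. Ppargc1a, which encodes PGC-1 alpha, the coactivator of fasting metabolism, rose by 1.09 ± 0.20 in wild type and 1.08 ± 0.20 in the knockout (limma adjusted p = 2.67e-03 and 3.19e-03). The acetyltransferase Ep300 rose by 0.52 ± 0.10 and 0.82 ± 0.10, Trim24 by 0.55 ± 0.12 and 0.70 ± 0.12, and Ncoa4 by 0.75 ± 0.13 and 0.47 ± 0.13. Pprc1 rose by 0.60 ± 0.16 in the knockout. The knockout call of Ncoa4 was lost without any single knockout array, and that of Pprc1 without any dexamethasone array or knockout vehicle 1 or 3. When those 4 arrays were left out, 2 coactivators passed in wild type, Ppargc1a and Trim24, and 4 in the knockout. Of 10 corepressors, 0 rose and 2 fell in wild type, Tbl1x by 0.31 ± 0.08 and Sin3a by 0.49 ± 0.15, and 0 passed in the knockout, where 1 was lower at an unadjusted limma p under 0.05. The call of Tbl1x was lost without wild-type vehicle 1 or dexamethasone 1 or 2, and that of Sin3a was kept in 9 of 21 alternatives. The medians were -0.10 and -0.01, and without the 4 arrays 0 corepressors passed in either genotype.

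Genes known to respond to the xenobiotic receptors moved unevenly. Among all genes tested, 4.57% rose and 6.95% fell in wild type, and 4.38% rose and 3.92% fell in the knockout. Of 16 tested targets of the constitutive androstane and pregnane X receptors, 4 rose and 1 fell in wild type and 4 rose and 0 fell in the knockout, with medians of 0.06 and -0.06. In the knockout 4 were lower at an unadjusted limma p under 0.05. Cyp2b10, the classical target of the constitutive androstane receptor, had wild-type levels of 5.48, 5.80 and 3.02 with vehicle and 11.67, 11.69 and 11.68 with dexamethasone. In the knockout it had 4.71, 2.94 and 3.83 with vehicle and 10.93, 11.43 and 11.51 with dexamethasone. It rose by 6.91 ± 0.58 and 7.46 ± 0.58 (limma adjusted p = 6.31e-06 and 3.26e-06), while Nr1i3 fell in wild type and did not pass in the knockout. The 2 high wild-type vehicle values of Cyp2b10 came from arrays with pancreas transcripts, and leaving out the 4 such arrays gave a rise of 8.66 in wild type and one of 7.47 in knockout livers. Gadd45b, a stress-inducible gene, rose by 5.83 ± 0.21 in each genotype, and the sulfotransferase Sult1d1 by 1.90 ± 0.20 and 1.76 ± 0.20. Cyp2c55 fell by 1.53 ± 0.28 in wild type, and Cyp3a13 rose by 0.60 ± 0.13 in the knockout, where it lost the call without knockout dexamethasone array 2 and without the 4 arrays with pancreas transcripts. Cyp2c55 lost its call without those 4. Cyp3a11, the usual readout of the pregnane X receptor in mice and chosen after its values were seen, had 0.11 ± 0.10 and -0.12 ± 0.10 and did not pass (adjusted p = 0.588 and 0.631).

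Of 19 tested targets of PPAR alpha, 8 rose and 1 fell in wild type, against 4.57% and 6.95% of all genes. In the knockout 5 rose and 1 fell, against 4.38% and 3.92% of all genes. The list medians were 0.39 in wild type and 0.03 in the knockout. Acot1, an acyl-CoA thioesterase, rose by 2.02 ± 0.11 and 1.03 ± 0.11 (limma adjusted p = 9.03e-08 and 3.68e-05), while Ppara itself did not pass. Angptl4, a lipase inhibitor, rose by 1.13 ± 0.16 and 0.88 ± 0.16, the fatty acid hydroxylase Cyp4a10 by 1.19 ± 0.21 and 0.93 ± 0.21, and the lipid droplet gene Cidec by 1.78 ± 0.28 and 1.15 ± 0.28. Under dexamethasone Acot1 was lower in the knockout than in wild type by 0.72 ± 0.11 (adjusted p = 0.0444), a call kept in 5 of 21 alternatives (-0.79 to -0.64) and lost without any single array other than wild-type vehicle 1 or knockout dexamethasone 3. Its interaction of -0.98 ± 0.15 did not pass (adjusted p = 0.159). In the knockout, Cidec lost its call without vehicle 2 or 3 or dexamethasone 2 or 3, and Cyp4a10 without vehicle 3 or dexamethasone 1. Angptl4 lost its wild-type call without the 4 arrays with pancreas transcripts, where the value was 0.86. On the 8 arrays without pancreas transcripts, 6 PPAR alpha targets rose in wild type and 2 in the knockout, and 0 fell.

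Targets of the oxysterol and bile acid receptors were lower more often than higher. So were all genes tested in wild type (4.57% rose and 6.95% fell), but not in the knockout (4.38% rose and 3.92% fell). Of 13 LXR targets, a list that includes Nr1h3, 1 rose and 4 fell in wild type and 0 rose and 2 fell in the knockout, with medians of -0.14 and -0.03. In the knockout 2 were higher at an unadjusted limma p under 0.05. Srebf1, the regulator of fatty acid synthesis, fell by 1.81 ± 0.26 and 1.00 ± 0.26 (limma adjusted p = 5.92e-04 and 0.0308). In wild type Lpl fell by 1.03 ± 0.16, Abcg1 fell by 0.77 ± 0.15, and the cholesterol exporter Abca1 rose by 0.43 ± 0.08. Lpcat3 fell by 0.69 ± 0.15 in the knockout. Of 15 bile acid genes and targets of FXR and its partner, a list that includes Nr0b2, 1 rose and 3 fell in wild type and 0 rose and 3 fell in the knockout, with medians of -0.21 and -0.17, and 1 was higher in the knockout at an unadjusted p under 0.05. Fgfr4, the receptor through which gut FGF15 restrains bile acid synthesis, fell by 0.52 ± 0.10 and 0.54 ± 0.10 (adjusted p = 4.75e-03 and 4.85e-03), and its partner Klb fell by 0.77 ± 0.17 in wild type. Baat fell by 0.38 ± 0.11 and 0.43 ± 0.11, Cyp27a1 rose by 0.32 ± 0.09 in wild type, and Cyp8b1 fell by 0.95 ± 0.25 in the knockout. Without the 4 arrays Srebf1 alone of the LXR targets passed in wild type and Lpcat3 alone in the knockout, and of the bile acid genes 0 passed in wild type and Fgfr4 alone in the knockout. The knockout call of Srebf1 was also lost without knockout vehicle 1 or 3 or dexamethasone 1 or 2, and that of Cyp8b1 without any knockout vehicle array or dexamethasone 2 or 3. Baat lost its wild-type call without wild-type vehicle 1 or 3 or any wild-type dexamethasone array, and its knockout call without knockout vehicle 1 or dexamethasone 2 or 3. The call of Cyp27a1 needed wild-type vehicle 1 and 2 and dexamethasone 1 and 2, each of which ended it when left out.

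Targets of the thyroid hormone, retinoic acid and HNF4 receptors passed in small numbers. For all genes tested the shares were 4.57% higher and 6.95% lower in wild type, and 4.38% and 3.92% in the knockout. Of 10 tested thyroid hormone targets, 1 rose and 1 fell in wild type and 1 rose and 0 fell in the knockout, with medians of -0.09 and -0.10, and 1 was lower in the knockout at an unadjusted limma p under 0.05. Thrsp, a lipogenic gene named for its response to thyroid hormone, rose by 1.90 ± 0.39 and 2.99 ± 0.39 (limma adjusted p = 5.99e-03 and 2.62e-04), and Fasn fell by 1.13 ± 0.23 in wild type. Of 10 tested retinoic acid targets, a list that includes Rarb, 1 rose and 2 fell in wild type and 0 rose and 2 fell in the knockout, with medians of -0.20 and -0.29, and 1 was higher in the knockout at an unadjusted p under 0.05. Dhrs3, a retinal reductase, fell by 0.94 ± 0.15 and 0.91 ± 0.15 (adjusted p = 1.19e-03 and 1.58e-03), and Tgm2 fell by 0.72 ± 0.10 in wild type. Crabp2 rose by 0.32 ± 0.10 in wild type, a call kept in 4 of 20 alternatives. Of 11 tested HNF4 alpha targets, Apoa4 rose by 1.81 ± 0.23 and 1.85 ± 0.23 and 0 others passed, with medians of 0.01 and -0.09. Without the 4 arrays 0 thyroid hormone and 0 retinoic acid targets passed in wild type.

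**Figure D4:**
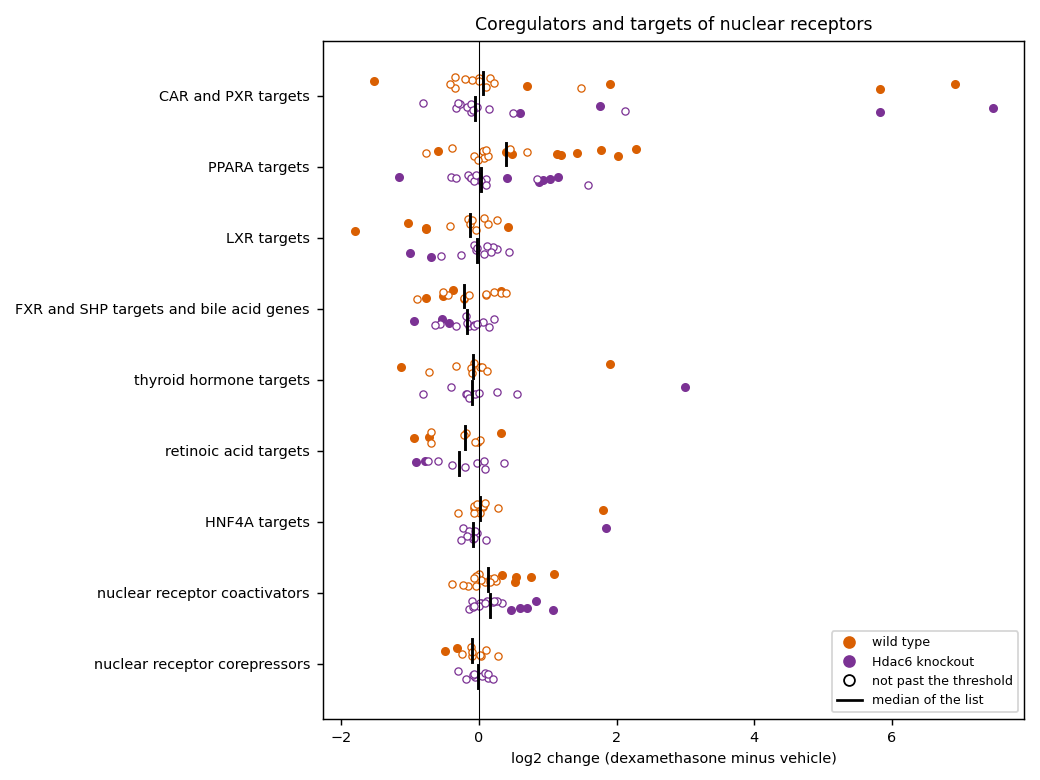
Log2 change with dexamethasone of each tested gene in 9 lists of nuclear receptor targets and coregulators, in wild type (orange) and Hdac6 knockout (purple); filled points passed the threshold and black ticks are list medians. Cyp2b10 (6.91 and 7.46) and Gadd45b (5.83 in each) stand far to the right, and all list medians lie between -0.29 and 0.39.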

How the data were processed

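Per the labels, biotin-labelled RNA of snap-frozen livers from different animals was hybridised to Affymetrix whole-transcript arrays. The deposited values are log2 intensities per probe set. Per the submitters' processing notes, the authors worked in R 2.10.0 with affy. The background correction, normalisation and summarisation are not given in the sources used here, and the log base was inferred from the range of 0.927 to 13.5. Of 34760 probe sets, 21640 carried 1 symbol and were used. The probe set with the highest mean stood for a gene with several. Genes above the 20th percentile of their array in at least 3 of 12 arrays were kept (17904).

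Group means were fitted with limma 3.58.1 in R 4.3.3 (with the data.table package, 1.17.8), with empirical Bayes moderation (8 residual and 5.07 prior degrees of freedom) and Benjamini-Hochberg adjustment over all genes tested, with a threshold of 0.05. The scripts were tested on simulated data. The members and gene lists were chosen with earlier results of these data known, and list membership rests on general knowledge. All measured members were described, with values on each array for those that passed in at least 1 comparison. For other lists up to 4 genes with the smallest p were named per comparison; markers of other cell types were named as examples, after their values were seen. Alternatives changed the filter, scaling, probe set rule, samples in the fit, replicate block, variance trend and arrays left out. The effect of the 4 arrays with pancreas transcripts on the target and marker lists was added after seeing the data.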

Additional observations from a re-analysis of the deposited data

How the results depend on the processing

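The 4 members that passed in both genotypes kept their calls under all 21 alternatives. Not all of the 21 could alter the direction. Changing the filter, variance trend or probe set rule, or leaving out an array of the other genotype, leaves a member's log2 change as it was. There only the adjusted p could move. Calls were also gained in some of the 21. In wild type this held for Rarb in 6, Thrb and Esrra in 5 each and Hnf4a in 1. In the knockout it held for Rara in 5, Rxrg in 4, Nr5a2 in 2 and Esrra in 1. Leaving out 1 array at a time gave 7 to 10 members past the threshold in wild type, 5 to 10 in the knockout (8 with all arrays) and 14 to 16 in the average. Without the 4 arrays with pancreas transcripts calls of members moved both ways. Several were lost in wild type, those of Nr5a2 and Esrra were lost in the average, and Rara and Rxrg gained one in the knockout. Over all genes, that setting gave 559 instead of 2064 in wild type, 1695 instead of 3085 in the average, 5 instead of 18 for the knockout under vehicle, 1 instead of 5 under dexamethasone, 1 instead of 0 for the interaction and 3 instead of 9 for the averaged knockout effect. Fewer arrays were fitted there. Leaving out 1 array gave 5 to 28 for the knockout under vehicle, 1 to 37 under dexamethasone, 0 to 3 for the interaction and 5 to 29 for the averaged knockout effect. For the knockout under dexamethasone, no filter, only the 2 groups in the fit, the replicate block and a mean-variance trend each gave 3. Only the groups compared gave 9 under vehicle, and the trend gave 14 and the replicate block 29 for the averaged knockout effect. The cause of these shifts was not tested. Deviations from the group means correlated from -0.54 to 0.36 in 18 pairs of same-numbered arrays, with 3 over 0.1. In 36 pairs of differently numbered arrays they ran from -0.35 to 0.40, with 11 over 0.1. Deviations within a group of 3 depend on each other, so these values cannot settle whether the numbers pair the animals. With the replicate block 11 members passed in wild type, among them the 9 of the main fit. In the knockout the 8 of the main fit passed.

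Members that did not pass changed sign in some settings. Without the 4 arrays the wild-type values were -0.052 for Nr1h4, 0.034 for Nr2c1, 0.047 for Nr2f1, 0.021 for Nr4a1, -0.057 for Ppara and -0.012 for Ppard, and the knockout value of Vdr was -0.039. Centring arrays on their medians gave -0.045 for Rxrb in wild type. Leaving out 1 array gave wild-type ranges of -0.0065 to 0.14 for Nr1h3, -0.28 to 0.17 for Nr2c1, -0.097 to 0.012 for Nr2f1, -0.022 to 0.18 for Nr4a2, -0.065 to 0.20 for Ppara, -0.081 to 0.10 for Rxrb and -0.027 to 0.11 for Vdr. The knockout ranges were -0.014 to 0.18 for Nr1h4, -0.20 to 0.0024 for Rora, -0.028 to 0.095 for Rxra and -0.039 to 0.038 for Vdr. Signals near the filter, as for Nr4a3, Hnf4g and Vdr, limit what could be measured.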
